A study of Mus musculus with 4 samples.

Results

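Kit and 7 other genes of differentiating spermatogonia, Sohlh1, Sohlh2, Dmrt1, Dmrtb1, Lmo4, Rhox13 and Prss50, were followed in cultured mouse gonocytes with and without retinoic acid (RA). The genes were chosen by name, and every probe set that the array annotation gave to one of them alone was read. That gave 9 probe sets, 2 of them for Kit and 1 for each other gene, so that 8 of the 18193 genes with a probe set of their own are described. Gonocytes are the fetal and newborn male germ cells that precede spermatogonia. They were isolated at 2 days post partum by magnetic selection for THY1, a surface protein, and then held for 8 h without serum, growth factors or feeder cells. One group of 2 samples received ethanol as vehicle and the other group of 2 samples received RA at 100 nM, and each sample was hybridised to 1 Affymetrix Mouse Genome 430 2.0 array. The labels name no strain, genotype or number of animals, and they do not say that the samples of a group were separate cultures, so p-values here reflect how far these samples scatter, which technical variation alone could produce. The samples are numbered 1 and 2 in both groups, and the labels do not say what the number stands for.

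RA is known to trigger the step from undifferentiated to differentiating spermatogonia in the postnatal testis. KIT, a receptor tyrosine kinase at the cell surface, appears at that step and responds to KIT ligand from Sertoli cells, the somatic nurse cells of the seminiferous cord. SOHLH1 and SOHLH2 are germ cell transcription factors of the basic helix-loop-helix class that bind E-box sequences and are needed for spermatogonia to differentiate. DMRT1 and DMRTB1 (also called DMRT6) carry the DM DNA-binding domain and control when spermatogonia leave mitosis for meiosis.

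The region upstream of a gene start is shown for Kit, the receptor that gives the set its name, and for Sohlh1, the member whose window held both motifs searched. Windows of 300 bases, 250 before the start and 50 after it, came from RefSeq for mouse assembly GRCm38.p6, where 7 of the 8 genes matched (12 windows, some genes having several starts). The motifs were AGGTCA on either strand, the half-site that RA receptors bind, and CACGTG, an E-box that reads the same on both strands. The 250 bases before the start are printed 5′ to 3′ on the strand of the gene, with both motifs in capitals. The bases printed for Kit lie on the plus strand at chr5:75574737-75574986, and those for Sohlh1 on the minus strand at chr2:25847249-25847498.
Kit: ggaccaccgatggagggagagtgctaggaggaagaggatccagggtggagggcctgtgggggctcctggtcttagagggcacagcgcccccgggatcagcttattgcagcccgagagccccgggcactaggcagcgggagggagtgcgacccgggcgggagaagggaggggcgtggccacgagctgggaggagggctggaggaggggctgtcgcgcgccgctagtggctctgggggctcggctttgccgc
Sohlh1: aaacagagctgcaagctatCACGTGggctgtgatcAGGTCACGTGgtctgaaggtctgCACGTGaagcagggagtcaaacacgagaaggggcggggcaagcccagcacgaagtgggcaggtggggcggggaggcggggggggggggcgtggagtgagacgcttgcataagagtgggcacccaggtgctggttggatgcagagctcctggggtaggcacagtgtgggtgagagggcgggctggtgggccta
The Sohlh1 window held 1 AGGTCA, starting at base -215 from the gene start, and 3 CACGTG, at bases -231, -211 and -192. The half-site shares its last 2 bases with the E-box at -211. Neither motif was found in the windows of the other 6 genes, Kit included. Among all 32851 windows of this length 16.3% held AGGTCA and 7.15% held CACGTG. The looser E-box CANNTG, which also counts every CACGTG, was found in 9 of the 12 windows and in 72.3% of all windows, and in Kit its match began at base 9 of the first listed transcript. These matches describe letters in a short window and say nothing of binding.

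The 4 arrays had the same trimmed mean intensity of 125, and their medians lay between 26.6 and 29.5. The germ cell label was looked at with 12 germ cell markers, among them Thy1, the gene of the protein used for selection. All 12 lay above the signal filter (a mean at or above an intensity of 15.5). So did 13011 of the 18193 genes with a probe set of their own. Piwil2, a germ cell Argonaute protein, had intensities of 1930 and 1826 in vehicle against 1794 and 1936 in RA. Of the markers of other cells, 11 of 12 for mast cells, 10 of 12 for Sertoli cells and 7 of 8 for macrophages lay above the filter. So wide a filter does not by itself show which cells were present. Of the Sertoli cell markers, Amh and Fshr were below the filter. The brightest were Clu, at 1744 and 2319 in vehicle against 1672 and 2666 in RA, and Aard, at 895 and 1420 against 997 and 1412. Where cell types may be mixed, fewer cells of a type and less RNA per cell cannot be told apart. The ratio of 3' to 5' signal of the control transcript Actb was 1.72 and 1.73 in vehicle against 2.08 and 2.32 in RA, and its part in the results was not tested.

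With RA at 8 h, none of the 8 genes separated the RA arrays from the vehicle arrays. In the fit over all probe sets (limma, log2(intensity + 5), 2 arrays per group), 7 of the 8 genes lay above the signal filter. Of these, 0 passed an adjusted p of 0.05 and 0 had an unadjusted p under 0.05, against backgrounds of 0% and 2.75% of 27022 probe sets. The change was positive in 4 (Kit, Sohlh1, Sohlh2 and Dmrt1) and negative in 3 (Dmrtb1, Lmo4 and Rhox13), with a median log2 change of 0.10 beside 0.01 over the 13011 genes above the filter. The members' median was -0.05 without vehicle array 2, 0.07 without vehicle array 1 and 0.18 without RA array 2. The groups overlapped in all 8 genes, while 26.8% of the 13011 genes had groups that did not overlap. For a single gene in this design the smallest p from an exact two-sided permutation test is 0.33.

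Kit was read by probe sets 1452514_a_at and 1415900_a_at. On the brighter, 1452514_a_at, the intensities were 83 and 188 on vehicle arrays 1 and 2 and 165 and 234 on RA arrays 1 and 2. The lowest value was a vehicle array and the highest an RA array, but RA array 1 lay below vehicle array 2, so the groups overlapped. The difference was 1.55-fold towards RA (log2 change 0.63 with SE 0.37, n = 2 per group, 95% interval -0.24 to 1.498) and did not pass (limma, unadjusted p = 0.131). The interval runs from 1.18-fold lower to 2.83-fold higher. The value rested on single arrays, since it was 0.07 without vehicle array 1, 1.196 without vehicle array 2, 0.87 without RA array 1 and 0.39 without RA array 2. No p-value is given for these fits, because 1 group then has a single array. A log2 change of 0.63 or larger in either direction was found in 3.64% of the 13011 genes.

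The dimmer Kit probe set, 1415900_a_at, had intensities of 16.7 and 32.2 in vehicle against 19.0 and 45.5 in RA. RA array 1 stood close to vehicle array 1, and RA array 2 was the highest. Its log2 change was 0.29 ± 0.44 (SE, n = 2 per group, 95% interval -0.73 to 1.31; limma, unadjusted p = 0.528). It turned negative without vehicle array 1 (-0.10) or without RA array 2 (-0.25), and was 0.68 without vehicle array 2 and 0.83 without RA array 1. Both Kit probe sets carry the suffix for probe sets that match several transcripts of 1 gene.

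**Figure D1:**
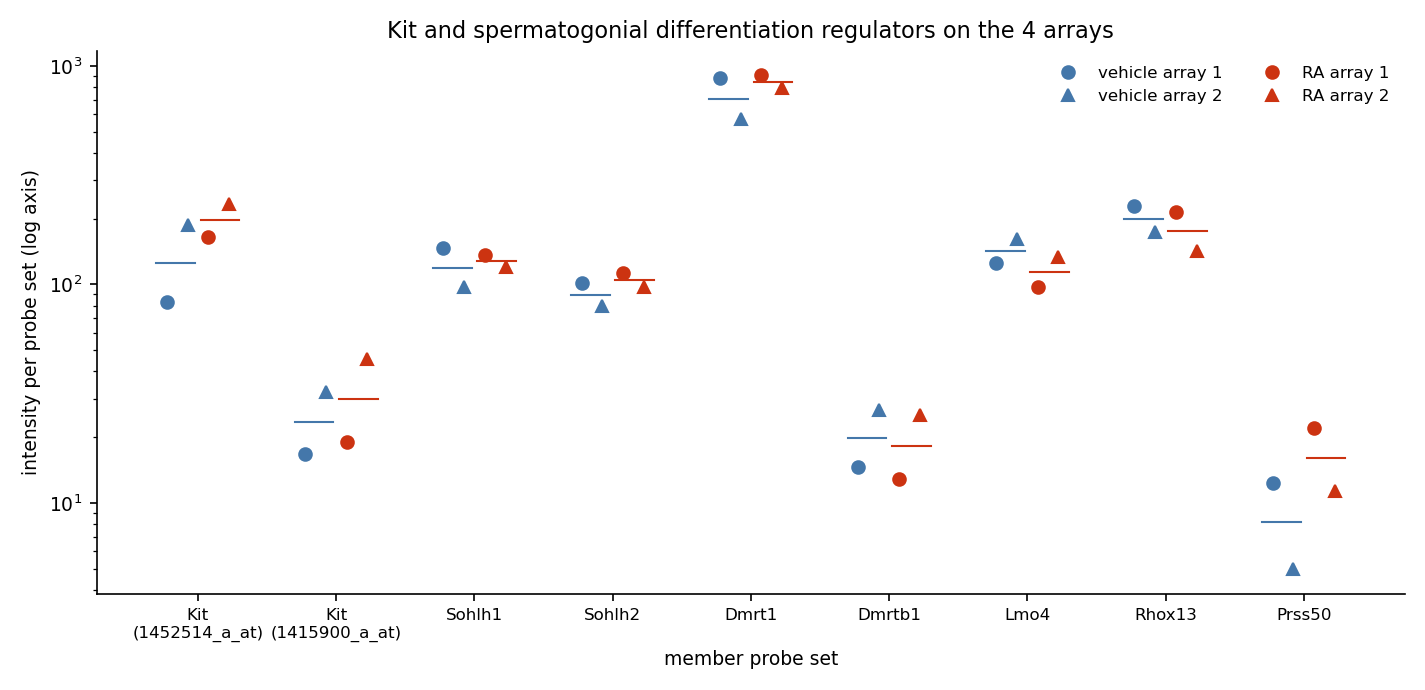
Intensity (log axis) of the 9 probe sets of the 8 genes on the 4 arrays, with vehicle in blue, RA in red, circles for arrays numbered 1 and triangles for arrays numbered 2, and a line at each group's mean on the log2(intensity + 5) scale. In every probe set the circles and triangles separate while the colours overlap.

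The SOHLH factors differed little between the groups. Sohlh1 had intensities of 146 and 97.3 in vehicle against 136 and 120 in RA. Both RA values lay between the vehicle values. Its log2 change was 0.10 ± 0.27 (SE, n = 2 per group), with a 95% interval of -0.52 to 0.71, and it was -0.18 without vehicle array 2, 0.38 without vehicle array 1, 0.18 without RA array 2 and 0.01 without RA array 1. Sohlh2 had intensities of 102 and 79.3 in vehicle against 112 and 97.4 in RA. RA array 1 was the highest, but RA array 2 lay below vehicle array 1. The log2 change was 0.21 ± 0.25 (SE, n = 2 per group, 95% interval -0.38 to 0.80), and it lay between 0.04 without vehicle array 2 and 0.38 without vehicle array 1, with 0.11 without RA array 1. The intervals of both genes exclude a 2-fold change in either direction under this model.

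Neither DM-domain gene passed the test. Dmrt1, which in spermatogonia restrains the response to RA and the expression of Stra8, had a probe set at the 95th percentile of all by mean signal, which is no measure of transcript amount. Its intensities were 878 and 569 in vehicle against 905 and 793 in RA. Vehicle array 2 was the low one, and vehicle array 1 stood between the RA arrays. The log2 change was 0.26 ± 0.25 (SE, n = 2 per group, 95% interval -0.32 to 0.84). It was 0.57 without vehicle array 1, -0.05 without vehicle array 2 and 0.17 without RA array 1. Dmrtb1, which acts later, in differentiating spermatogonia, had intensities of 14.7 and 26.6 in vehicle against 12.8 and 25.4 in RA, at the 43.7th percentile. Each RA array was close to the vehicle array of its number. The log2 change was -0.10 ± 0.39 (SE, n = 2 per group, 95% interval -1.001 to 0.80), and leaving out 1 array gave values from -0.48 (without RA array 2) and -0.44 (without vehicle array 1) to 0.24 (without vehicle array 2) and 0.28 (without RA array 1).

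Lmo4 and Rhox13 were the other members with a negative change. LMO4 is an adaptor of LIM domains that joins transcription factor complexes and is made in many cell types. Its intensities were 126 and 162 in vehicle against 97.5 and 133 in RA. RA array 1 was the lowest and vehicle array 2 the highest, with the other 2 arrays close together. The log2 change was -0.31 ± 0.26 (SE, n = 2 per group, 95% interval -0.92 to 0.29; limma, unadjusted p = 0.263), and it was negative with any 1 array left out, from -0.53 without RA array 2 and -0.49 without vehicle array 1 to -0.14 without vehicle array 2 and -0.10 without RA array 1. RHOX13 is an X-linked homeodomain protein of germ cells whose protein is known to appear as spermatogonia differentiate. Rhox13 had intensities of 229 and 175 in vehicle against 214 and 143 in RA. RA array 2 was the lowest, and RA array 1 stood between the vehicle arrays. Its log2 change was -0.19 ± 0.26 (SE, n = 2 per group, 95% interval -0.80 to 0.43). Without RA array 2 it was 0.10 and without vehicle array 1 it was 0.00, whereas it was -0.47 without RA array 1 and -0.38 without vehicle array 2.

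Prss50, which encodes a testis protein of the serine protease family, was below the signal filter and had no adjusted p. Its intensities were 12.3 and 4.99 in vehicle against 22.1 and 11.4 in RA. RA array 1 was the highest and vehicle array 2 the lowest, while RA array 2 lay just below vehicle array 1. In the fit with no filter its log2 change was 0.68 ± 0.42 (SE, n = 2 per group, 95% interval -0.31 to 1.66; limma, unadjusted p = 0.149). At signals this near the pseudocount of 5 a ratio carries little information.

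**Figure D2:**
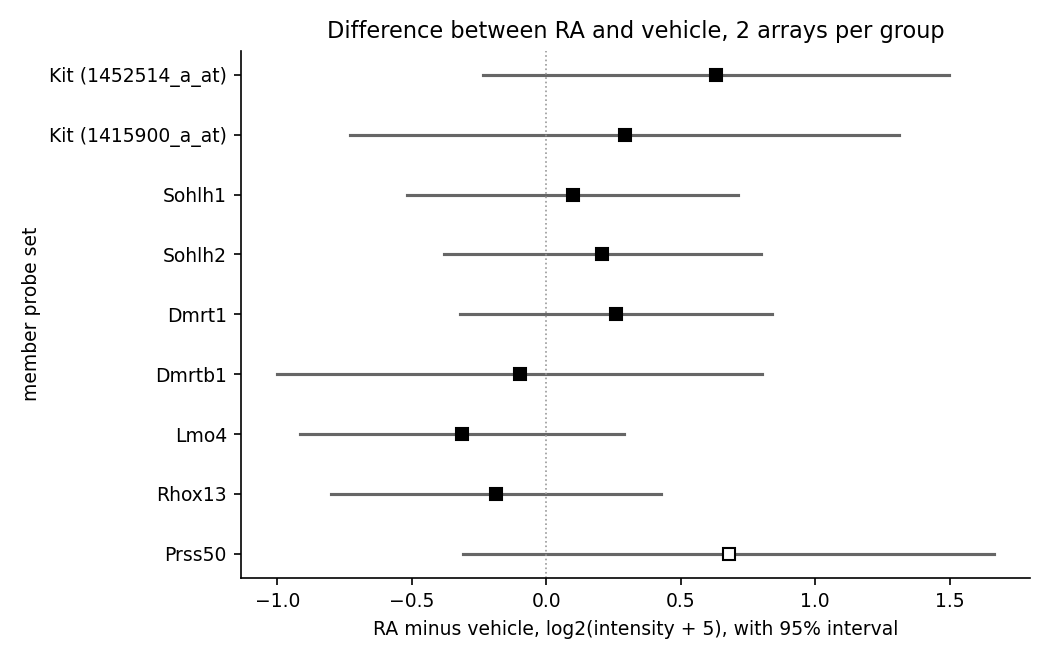
Difference between RA and vehicle on the log2(intensity + 5) scale for the 9 probe sets, with squares at the estimate and lines for the 95% interval from limma (2 arrays per group); the open square is Prss50, from the fit with no filter. All 9 intervals include 0, and Kit 1452514_a_at and Prss50 lie farthest to the right.

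The arrays numbered 2 differed from those numbered 1 in every one of the 9 probe sets. Of the 7 genes above the filter, 7 had both arrays of one number above both arrays of the other, and so did 51.9% of the 13011 genes, 21.4% with the arrays numbered 2 higher and 30.5% with them lower. A gene that separates by number cannot also separate by treatment, so this count and the count of overlapping groups are not independent. Of the 8 members, 3 (Kit, Dmrtb1 and Lmo4) were higher on the arrays numbered 2 and 5 were lower. The log2 difference between the numbers was 0.81 for Kit on 1452514_a_at, 0.93 on 1415900_a_at, 0.73 for Dmrtb1 and 0.39 for Lmo4. Kit on 1452514_a_at was 2.19-fold higher on vehicle array 2 than on vehicle array 1 and 1.40-fold higher on RA array 2 than on RA array 1. Sohlh1, Sohlh2, Dmrt1, Rhox13 and Prss50 were lower on the arrays numbered 2, by log2 differences of -0.37, -0.27, -0.40, -0.47 and -0.76.

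**Figure D3:**
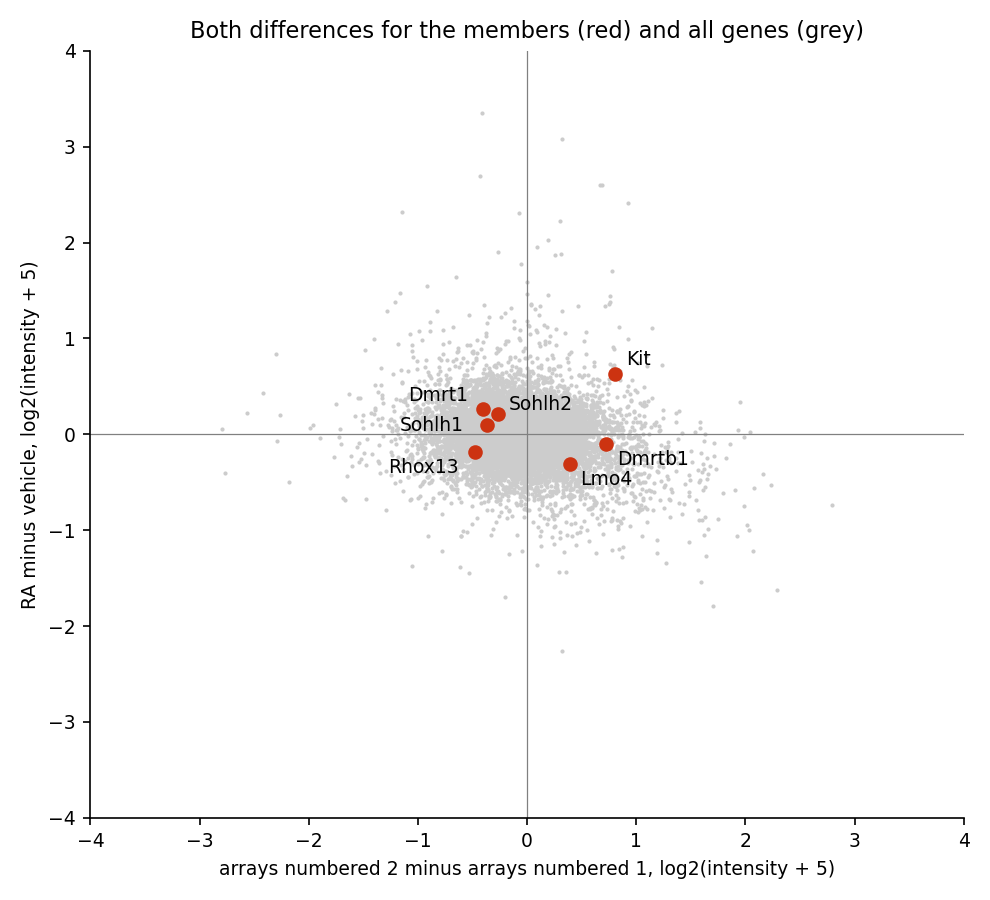
Difference between the arrays numbered 2 and 1 (horizontal) and between RA and vehicle (vertical), both on the log2(intensity + 5) scale, for the 7 members above the filter (red) and all 13011 genes above it (grey). Kit, Dmrtb1 and Lmo4 lie on the right and the other members on the left.

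Markers of several cell types moved with the number. Some of the brightest genes outside the marker lists were also higher on the arrays numbered 2. Their log2 differences between the numbers were 0.57 for Rps28, 0.55 for Rpl19 and 0.46 for Actb. Over the 13011 genes above the filter, 21.4% were higher on both arrays numbered 2 and 30.5% were lower. Mast cells, tissue cells of the immune system that carry KIT as a defining receptor, were read through 12 markers. Their summed intensity was 5827 and 12309 in vehicle against 3856 and 11130 in RA, higher on both arrays numbered 2, and 7 of the 11 markers above the filter separated that way against 0 in the other direction. Between treatments the list ran down, opposite in sign to Kit, with 10 of 11 changes negative and a median log2 change of -0.36. The mast cell protease genes Mcpt2 and Cma1 were its brightest markers, and Mcpt2 had intensities of 1258 and 2673 in vehicle against 886 and 2370 in RA. Leydig cells, the steroid-making cells of the testis, can also carry KIT. Their 4 markers with a probe set summed to 1374 and 2495 in vehicle against 1509 and 1978 in RA, again higher on the arrays numbered 2. Of these 4, 2 separated that way and 0 in the other direction. The brightest, Cyp11a1, did separate and Star did not. Macrophage markers summed to 1061 and 2077 in vehicle against 861 and 1829 in RA. The part of these cells in the Kit signal was not tested.

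The germ cell markers ran the other way by number. They summed to 10539 and 9601 in vehicle against 9551 and 8848 in RA. Of the 12, 7 were lower on both arrays numbered 2 and 0 higher, beside 30.5% and 21.4% of the 13011 genes. The germ cell factors Sohlh1, Sohlh2, Dmrt1 and Rhox13 shared that direction, as did Prss50, while Dmrtb1 ran the opposite way. Between treatments 12 of 12 germ cell markers had a negative change, with a median log2 change of -0.14. Sertoli cell markers, which bear on Dmrt1 because Sertoli cells also make it, summed to 4742 and 6520 in vehicle against 5167 and 6581 in RA, so Dmrt1 and these markers ran in opposite directions by number. Markers of peritubular and stromal cells summed to 8755 and 10664 in vehicle against 9157 and 12198 in RA. Endothelial markers were dim, with sums of 281 and 264 in vehicle against 323 and 377 in RA, and 8 of 8 had a positive change. The part of these cells in the members' values was not tested.

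**Figure D4:**
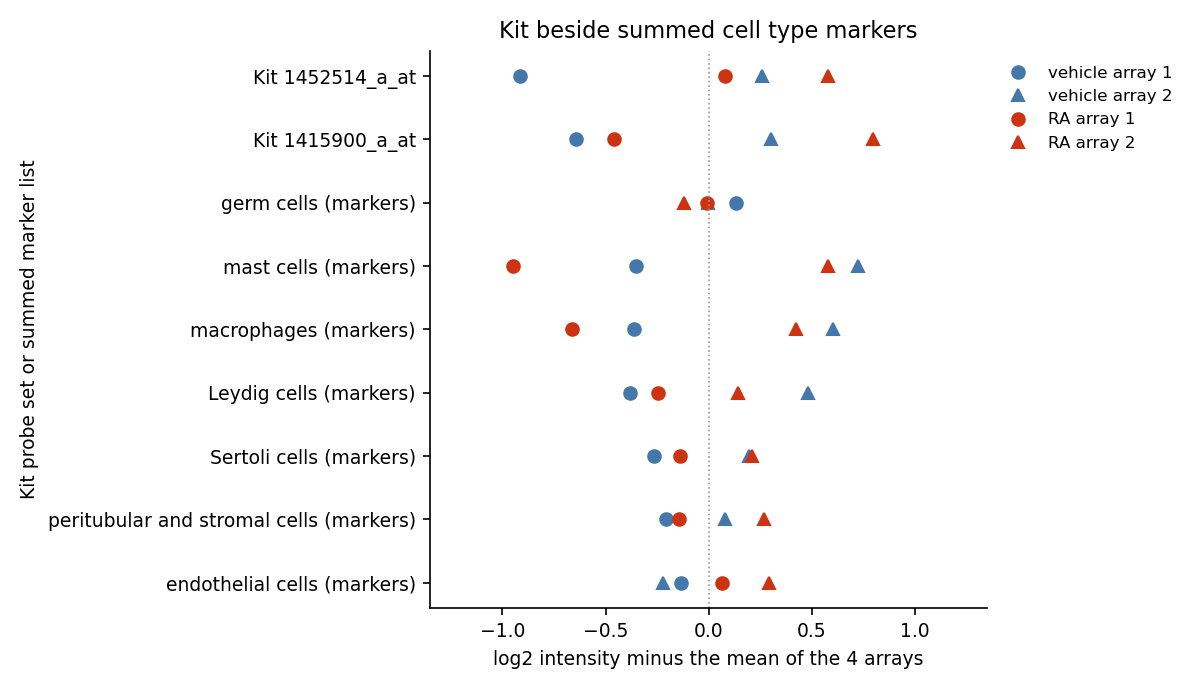
Log2 intensity of both Kit probe sets and of the summed markers of 7 cell types, each minus its mean over the 4 arrays (horizontal), with vehicle in blue, RA in red, circles for arrays numbered 1 and triangles for arrays numbered 2. Both Kit probe sets and the mast cell, macrophage, Leydig cell, Sertoli cell and peritubular and stromal markers have both triangles to the right of both circles, the germ cell and endothelial markers do not, and for mast cells RA array 1 is the lowest while for Kit vehicle array 1 is.

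The ligand of KIT and the proteins that carry its signal showed no called change. Of 50 such genes, 41 had a probe set of their own, all above the filter. In limma 0 rose and 0 fell at an adjusted p of 0.05, and 0 had an unadjusted p under 0.05. Their changes were positive in 18 and negative in 23, with a median log2 change of -0.02. Kitl, the ligand, had intensities of 528 and 689 in vehicle against 563 and 623 in RA (log2 change -0.03 ± 0.21, SE, n = 2 per group). The genes with the smallest p were Braf, a kinase of the MAP kinase cascade, at -0.38 ± 0.20, and Gab2, a docking protein, at 0.49 ± 0.27. The groups were separated in these 2 genes, which is little surprise in genes picked by p. Braf was at 253 and 243 against 205 and 175 and Gab2 at 148 and 161 against 281 and 171. Of the 41 genes, 5 had both RA arrays higher and 4 both lower, where 26.8% of the 13011 genes had groups that did not overlap. Foxo1, a transcription factor that the PI3-kinase and AKT arm of KIT signalling holds out of the nucleus, had intensities of 390 and 241 in vehicle against 415 and 252 in RA, and was named after its values were seen.

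Relatives and partners of the member transcription factors were also without a called change. They comprised E-proteins that pair with helix-loop-helix factors, other DM-domain, LIM-only and Rhox genes, LIM-binding proteins, and the germ cell transcription factors Figla, Nobox and Lhx8. Of 25 genes 19 had a probe set and 15 lay above the filter, 12 with a positive and 3 with a negative change, and the median log2 change was 0.14. In limma 0 passed an adjusted p of 0.05 and 0 had an unadjusted p under 0.05. Ldb1, the scaffold that binds LIM-only proteins such as LMO4, had intensities of 157 and 148 in vehicle against 102 and 125 in RA (log2 change -0.42 ± 0.23, SE, n = 2 per group). In Ldb1 the 2 RA values were the lower ones. Figla, a germ cell helix-loop-helix gene, stood at 0.51 ± 0.38, with 55.7 and 34.2 against 88.7 and 46.7.

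Among 25 other genes of spermatogonial differentiation, 23 had a probe set and 21 lay above the filter, 8 with a positive and 13 with a negative change and a median log2 change of -0.15. None passed an adjusted p of 0.05 in limma, while 1 higher and 2 lower genes had an unadjusted p under 0.05. Over all 27022 probe sets the share with an unadjusted p under 0.05 was 2.75%. Stra8, the RA-induced gene needed for meiosis, was the higher one, with intensities of 188 and 53.3 against 783 and 1477. Its promoter window held 2 AGGTCA half-sites, at bases -194 and -38, where 16.3% of all 32851 windows held the motif. Outside the members only Stra8 was searched, and the part of these half-sites in its signal was not tested. Sox3, a transcription factor of early spermatogonia, was at 156 and 105 in vehicle against 93.8 and 36.0 in RA (log2 change -1.06 ± 0.42, SE, n = 2 per group). Of 16 genes of the undifferentiated state, which Kit-positive cells are known to leave, 14 were above the filter, 11 of them with a negative change, and the median was -0.32. None of these passed an adjusted p of 0.05 either. Of the 14, 5 lower and 0 higher genes had an unadjusted p under 0.05, beside 2.75% of the 27022 probe sets. Like the others, this list was chosen with earlier results of these data known. The smallest p in that list belonged to Ret and Zbtb16. Ret, the GDNF receptor, was at 514 and 562 against 254 and 277 (log2 change -1.004 ± 0.19). Zbtb16, a transcriptional repressor made in spermatogonial stem cells, was at 701 and 699 against 368 and 174 (-1.45 ± 0.33).

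**Figure D5:**
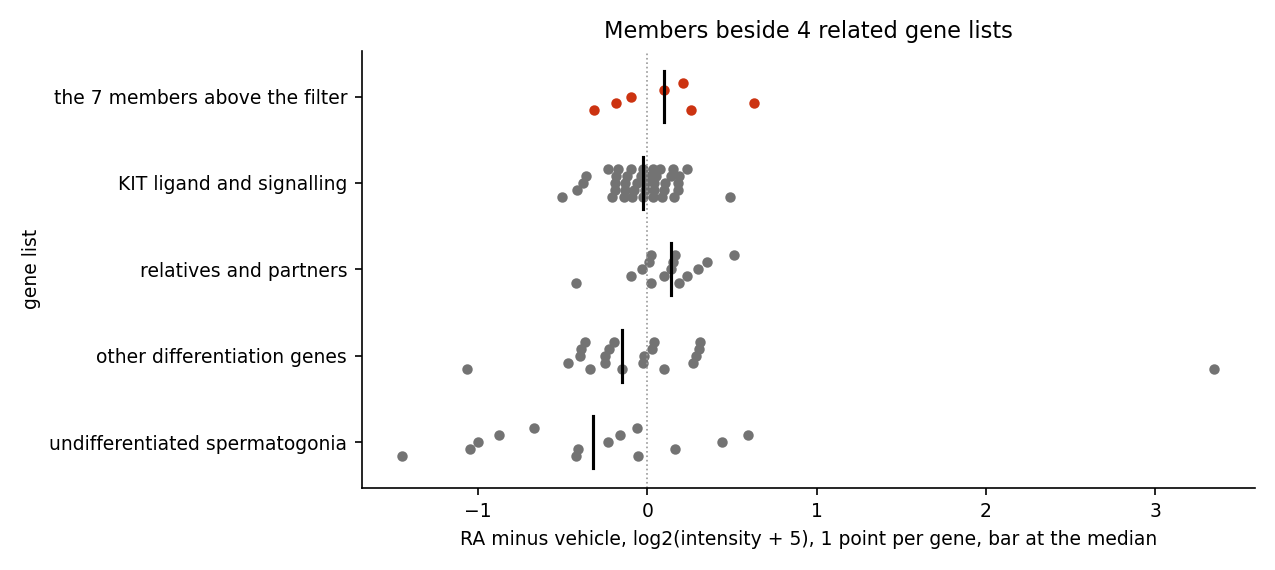
Difference between RA and vehicle on the log2(intensity + 5) scale, 1 point per gene above the filter, for the 7 members (red) and 4 related lists (grey), with a bar at each median. The members lie between -0.31 and 0.63, and the far point on the right among the other differentiation genes is Stra8.

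The genes whose pattern over the 4 arrays was nearest to that of Kit on 1452514_a_at were Tnxb, Speer4a, Pgf, Gfi1 and Fmod. Likeness was the root mean square distance between log2 values after each gene's own mean was taken off, over 4 arrays and 13011 genes, and these 5 had distances from 0.10 to 0.15 where the median gene had 0.59. Tnxb, a tenascin of the extracellular matrix, had intensities of 28.1 and 58.0 in vehicle against 53.5 and 87.1 in RA. Fmod, a matrix proteoglycan, had 115 and 197 against 218 and 306, and its groups did not overlap. The second Kit probe set lay at a distance of 0.30. This ranking over 4 arrays is a description.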

How the data were processed

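The deposited table gives a linear intensity for each probe set on each of 4 arrays. Per the labels, 75 ng of RNA was amplified (NuGEN Ovation, version 2) and GCOS 1.2 quantified the images; the method by which the authors summarised and scaled these deposited intensities is not stated there. Equal trimmed means (2% off each end) were found on the 4 arrays, so no normalization was added. After 64 control probe sets were left out, 45037 remained, and those with a mean at or above the 40th percentile (27022) were fitted as log2(intensity + 5) with limma 3.58.1 in R 4.3.3 (trend, 2 residual degrees of freedom), two-sided, Benjamini-Hochberg over all of them. Because 5 was added, folds of dim genes come out too small. A gene was read from its brightest probe set. Symbols were updated by Entrez ID (34741 probe sets matched); 34945 probe sets name 1 gene, 932 several and 9160 none. The fit was tested on simulated data. The members and lists were chosen with earlier results of these data known. Named genes were all members, the 2 list genes with the smallest p where none passed, bright markers and the 5 genes most like Kit. Not all bright markers are printed. Other genes were named after their values were seen. Alternatives covered normalization, pseudocount (1 and 20), filter, variance model, replicate block, left-out arrays and the mean of all probe sets. Figures were drawn with matplotlib 3.10.9.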

Additional observations from a re-analysis of the deposited data

How the results depend on the processing

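No member gene passed an adjusted p of 0.05 under any of the 14 alternatives. The count over all probe sets was 0 in the reported fit, 543 with the replicate block and from 0 to 152 with 1 array left out. The labels state no shared source for a number; deviations of same-numbered arrays from their group means correlated at 0.53 over 27022 probe sets. With the replicate block, Kit on its brighter probe set kept its log2 change of 0.63. Its unadjusted p was 0.00182 and its adjusted p 0.0734 in limma. So 1 member rather than 0 had an unadjusted p under 0.05, in a fit with fewer residual degrees of freedom than the reported one. The share of all probe sets under 0.05 was not counted for that fit, so nothing is read from this count of members. The Kit values within numbers 1 and 2 were 0.95 and 0.31. RA minus vehicle had 1 sign within both numbers in 8 of 9 probe sets, Sohlh1 being the exception. The share over all genes was not counted, so nothing is read from it, and 2 of the 9 probe sets are of Kit. The filter, variance model and replicate block settings leave a log2 change as it is. So does the mean of all probe sets for a gene with 1 probe set. Such values could not turn, and they are counted here. Of 109 gene values under alternatives, 100 kept their direction. The others came from leaving out 1 array, where log2 changes ran from -0.18 to 0.38 for Sohlh1, from -0.0507 to 0.57 for Dmrt1, from -0.48 to 0.28 for Dmrtb1, from -0.47 to 0.10 for Rhox13 and from -0.25 to 0.83 for the dimmer Kit probe set, except for 1 with arrays scaled to the 12 germ cell markers, an alternative chosen after seeing the data, which gave 0.0867 for Dmrtb1. That scaling moved the median of all probe sets from -0.02 to 0.17, Kit to 0.82 and the median of the members to 0.28. The cause of these shifts was not tested. Prss50 was tested with no filter only. The number of arrays limits every value.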
